A study of Mus musculus with 4 samples.

Results

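Tubulins, the proteins that bind and regulate microtubules, and neurofilaments were described as one set of genes in embryonic mouse cortex with and without a conditional deletion of Prdm16. The 42 members were picked by a rule on name and biotype: protein-coding genes in both deposited tables that encode alpha-, beta- or gamma-tubulins, gamma-tubulin complex proteins, stathmins, structural microtubule-associated proteins (MAPs), the doublecortin family, or neurofilament subunits and internexin. They are 42 of 19968 genes in both tables, and 40 had enough counts to be tested. Tuba8 also matched by name but was listed in 1 table only, with 3 counts in a cKO library and 4 in the control, and was left out.

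RNA was sequenced from cerebral cortex of C57BL/6 embryos at embryonic day 15. The knockout group carried the genotype Prdm16cKO and the control group Prdm16fl/fl, called floxed here. The labels do not give the Cre line or the deleted exon, so the cells that lost the gene are not known here, and the control carries the floxed alleles. In each group the title of 1 sample also holds the unexplained word Blood, and the columns do not show whether it was used. The labels list 2 samples per group, and the tables hold 2 libraries labelled cKO (cKO 1 and cKO 2) and 1 floxed library that both share. Errors are therefore given for the cKO group alone, as the SD of 2 libraries, which may be technical replicates.

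The libraries held 19518174 (cKO 1), 18581791 (cKO 2) and 17841685 (floxed) counts in all. Prdm16 itself stood at 34.6, 24.1 and 30.2 CPM (counts scaled to the library total) in cKO 1, cKO 2 and floxed, so the library labelled cKO 1 was not below the control. A count over all exons checks the label only in part, because the deleted exon is not given. Markers of meninges and fibroblasts separated the cKO libraries: their summed level over 14 genes was 1351 CPM in cKO 1, 94.4 in cKO 2 and 867 in floxed. Summed pan-neuronal markers, 18 genes outside the cytoskeleton, differed less, with 5676, 6123 and 6044 CPM. In bulk tissue, fewer cells of a type and less RNA per cell cannot be told apart.

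Microtubules are hollow polymers of alpha- and beta-tubulin dimers, and gamma-tubulin in its ring complex seeds new ones at the centrosome and elsewhere. Stathmins bind free dimers and favour disassembly, while MAPs and doublecortin bind along the polymer and stabilise it, so that migrating cortical neurons can move their nuclei and extend axons and dendrites. Neurofilaments are the intermediate filaments of neurons and accumulate as axons mature. Mutations in Tuba1a, Tubb2b, Tubb3 and Dcx are known to disturb the layering of the cortex.

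The tubulin isotypes are encoded by nearly identical genes, which bears on how far their counts can be separated. The last 90 coding bases, which encode the acidic tail where isotypes usually differ most, are shown for 3 beta-tubulins, with capitals at positions that differ within the Tubb2 pair and the stop codon at the end. The coding sequences of Tuba1a and Tuba1b were identical at 1333 of 1356 bases (98.3%).
Tubb2a and Tubb2b were identical at 1291 of 1338 coding bases (96.5%). Their ends (GRCm38) lie at chr13:34074468-34074557 and chr13:34127471-34127560, on the minus strand. The ends differ at 3 positions, none of which changes the encoded amino acid.
Tubb2a: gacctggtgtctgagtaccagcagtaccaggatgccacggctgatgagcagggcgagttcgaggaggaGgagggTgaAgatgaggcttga
Tubb2b: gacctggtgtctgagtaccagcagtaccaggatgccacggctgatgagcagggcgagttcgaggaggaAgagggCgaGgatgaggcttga
The neuronal isotype Tubb3, by contrast, aligned with Tubb2b at 84.4% identity, and its end lies on the plus strand at chr8:123421593-123421682.
Tubb3: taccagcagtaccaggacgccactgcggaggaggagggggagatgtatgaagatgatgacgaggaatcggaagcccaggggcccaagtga

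Over whole transcripts, 72.9% of the 50-base windows of Tuba1a also occur in transcripts of other genes, as do 73.8% of those of Tuba1b, 61.0% of Tuba1c, 50.9% of Tubb4b, 49.6% of Tubb2a and 39.3% of Tubb2b. Stmn1 (25.5%), Tubg2 (14.3%) and Tubg1 (14.1%) complete the 9 members above 10%, and 27 members share no window. The authors' treatment of reads with several matches is not known here, so the levels of these 9 genes are uncertain relative to each other. The 9 pseudogenes that the deposited tables match to tubulin or stathmin proteins held 184 counts (cKO 1), 104 (cKO 2) and 90 (floxed), small beside the members' 699991, 704910 and 643653. Because the treatment of reads with several matches is not known, these counts do not show how many reads members share with pseudogenes. Several members are neighbours: Tuba1b, Tuba1a and Tuba1c lie within one stretch of chromosome 15, Tubb2a and Tubb2b are 48.7 kb apart on chromosome 13, Tubg1 and Tubg2 are 29.5 kb apart on chromosome 11, and Nefm and Nefl overlap on opposite strands of chromosome 14.

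Some members were among the most abundant transcripts of this tissue, while others ranked far lower, with Tubgcp2 at rank 2559 and Nefh at 14521 in floxed. Together the 42 members held 3.59%, 3.79% and 3.61% of the library total in cKO 1, cKO 2 and floxed. In floxed, alpha- and beta-tubulins summed to 11396 and 13678 of the members' 36076 CPM. Tuba1a was the gene with the most counts in each of the 3 libraries, and Tubb2b and Tubb5 held ranks 5 and 6 in each. Of the 42 members, 12 ranked among the first 200 genes of the floxed library. At the other end, Tubb1, the platelet isotype, had counts of 5, 0 and 5, and Map7d3, of the kinesin-recruiting MAP7 family, had 9, 3 and 4. These 2 genes were too low to be tested. The 0 counts of Tubb1 in cKO 2 allow a level of up to 0.161 CPM (3 counts), a limit that covers counting error only.

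No member passed the test between genotypes. With edgeR's quasi-likelihood test, 0 of 40 tested members had an adjusted p under 0.05, where 0% of all 16725 tested genes did, and 0 members had an unadjusted p under 0.05, where 1.3% of all tested genes did. DESeq2 called 0 members and 0.025% of all genes, and limma-voom called 0 members and 0% of all genes. The median fitted log2 fold of cKO over floxed was 0.011 for the members and 0.01 for all tested genes. Only the cKO libraries inform the spread in these fits, and the lone floxed library is assumed to vary like them.

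The order of the libraries is given beside that of all tested genes, and differences between these shares were not tested. The floxed level lay above both cKO libraries for 16 of 40 members (40%, against 31.8% of all tested genes) and below both for 9 (22.5%, against 27.7%). It lay between them for the other 15, with cKO 2 the higher for 9 members (22.5%, against 15.8%) and cKO 1 the higher for 6 (15%, against 24.7%). Of these members 37 had a mean of at least 10 CPM, and for them the shares above and below both were 40.5% and 21.6%, against 30.7% and 28.9% of all genes at that level. With TMM or RLE size factors in place of library totals, the order differed for 6 members: Tuba4a, Tubb4b, Tubg2, Map6, Map7d2 and Stmn2. The floxed level then lay above both cKO libraries for 12 members in place of 16, and below both for 9. The shares of all tested genes, here and below, were computed with library totals only.

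The members differed from the control by less than genes did in the median: their median absolute log2 ratio was 0.10 in cKO 1 and 0.12 in cKO 2, against 0.16 and 0.19 over all tested genes, and at a mean of at least 10 CPM it was 0.07 and 0.10, against 0.11 and 0.13. In cKO 1, 1 member (Nefh, on few counts) had a log2 ratio to floxed above 0.32, a ratio of 5 to 4, and 2 (Tubgcp6 and Tubgcp4) had one below -0.32 (2.5% and 5%, against 15.4% and 10.9% of all tested genes). In cKO 2 the numbers were 0 and 4 (Tubb6, Tubgcp2, Tubgcp4 and Tubgcp6) (0% and 10%, against 10.6% and 22.2%). Among genes with a mean of at least 10 CPM the corresponding shares in cKO 1 were 0% and 2.7% of members, against 5.78% and 3.34%, and in cKO 2 0% and 8.11%, against 4.92% and 8.41%. The cKO libraries were more than 0.32 log2 apart for 6 members (15%, against 33.9%). At a mean of at least 10 CPM, the median absolute log2 gap between cKO libraries was 0.13 for members and 0.14 for all tested genes. None of the 40 tested members was past 2-fold in either library, where the shares of all tested genes were 2.58% and 2.17% in cKO 1 and 1.97% and 7.8% in cKO 2. The 2-fold and between-library shares, here and below, were not computed for genes with a mean of at least 10 CPM. Both comparisons use the same floxed library. The authors' deposited tests each set 1 library against 1, and their calls are not counted here.

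**Figure D1:**
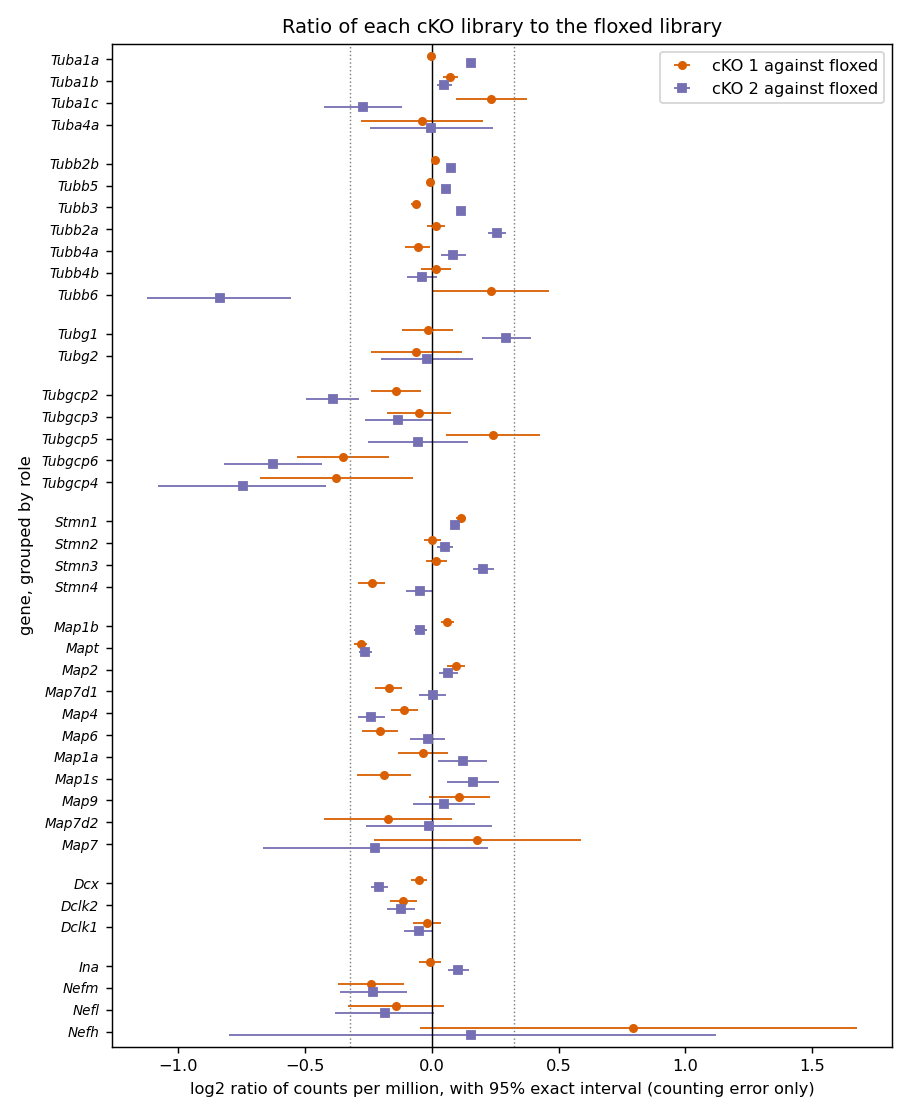
Log2 ratio of each cKO library to the floxed library for the 40 tested members, grouped by role; bars are 95% exact intervals that cover counting error only, and dotted lines mark log2 ratios of 0.32 and -0.32. Most points lie between the dotted lines, Tubgcp6 and Tubgcp4 lie left of the lower line in both libraries, and Tubb6 lies on opposite sides of 0.

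Alpha-tubulins, the subunit that carries the tyrosine cycle at its tail, were dominated by Tuba1a, the main isotype of young neurons. Tuba1a (ENSMUSG00000072235, minus strand, chr15:98949841-98953551) had 10404 CPM in cKO 1, 11603 in cKO 2 and 10423 in floxed. The control was level with cKO 1 and below cKO 2, so the groups overlapped, and edgeR gave a log2 fold of 0.10 (SE 0.18, adjusted p = 1). Per kilobase of exon, Tuba1a made up 91.5%, 92.5% and 91.9% of alpha-tubulin signal in cKO 1, cKO 2 and floxed. Tuba1b, the isotype of dividing cells, had 963, 947 and 916 CPM, with the control slightly below both. Tuba1c, also common outside neurons, had 49.2, 34.6 and 41.8 CPM, and Tuba4a 15.1, 15.5 and 15.5 CPM. Tuba4a shares 37.3% of its exon bases with Stk16 on the opposite strand, and the library kit does not mark strand.

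Among beta-tubulins, 0 of 7 tested members had the floxed level above both cKO libraries, 2 had it below both and 5 between, where 31.8% of all tested genes had it above both and 27.7% below both. Tubb2b, an isotype of neuronal progenitors and migrating neurons, was the most abundant, with 4929 CPM in cKO 1, 5150 in cKO 2 and 4886 in floxed. Its ratio to floxed lay between 0.999 and 1.02 in cKO 1 and between 1.04 and 1.06 in cKO 2 (95% exact intervals), and edgeR gave a log2 fold of 0.06 (SE 0.15, adjusted p = 1). Tubb5, a broadly expressed isotype, had 4720, 4932 and 4746 CPM. The cKO libraries were 1.04-fold apart in both genes, a gap like that between cKO 2 and the control.

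Tubb3, the isotype restricted to neurons and recognised by the antibody Tuj1, had 2629 CPM in cKO 1, 2975 in cKO 2 and 2748 in floxed, with the control between the cKO libraries. Tubb2a had 689, 813 and 680 CPM, Tubb4a 333, 367 and 346, and Tubb4b 258, 249 and 256. The cKO libraries differed 1.18-fold for Tubb2a and 1.13-fold for Tubb3, and cKO 2 was the higher in both. Per kilobase of exon, Tubb2b, Tubb3 and Tubb5 made up 37.1%, 25.7% and 24.9% of beta-tubulin signal in floxed, 37.8%, 24.8% and 25.0% in cKO 1, and 36.7%, 26.1% and 24.3% in cKO 2. The shares of these 3 isotypes lay within 2 percentage points of each other across libraries.

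**Figure D2:**
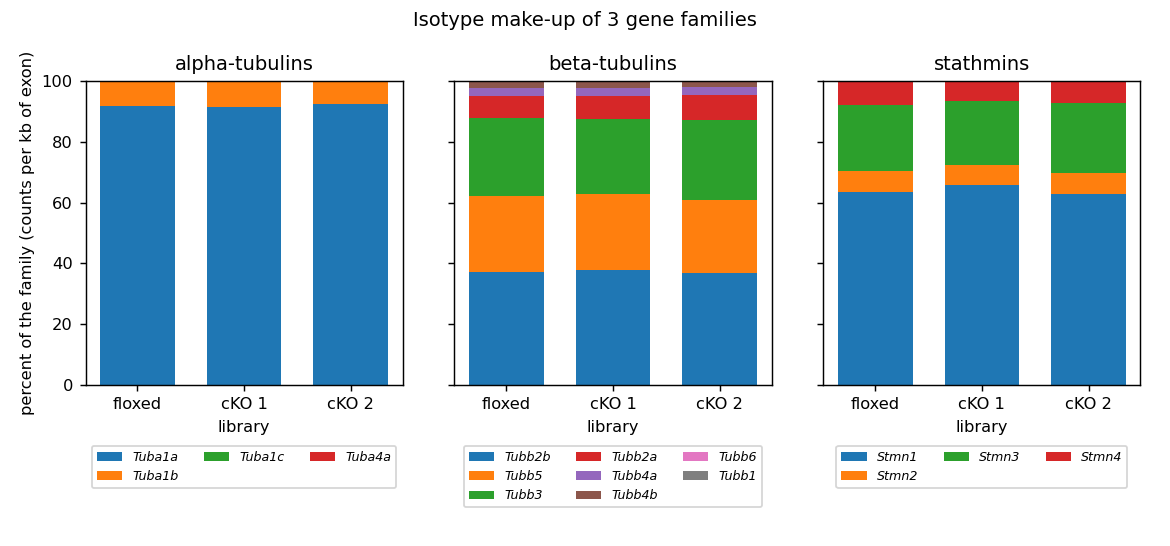
Make-up of alpha-tubulins, beta-tubulins and stathmins in each library, as the percent of the family's counts per kilobase of exon; each bar is 1 library and adds up to 100%. Tuba1a fills over 91% of the first panel, Tubb2b, Tubb5 and Tubb3 most of the second and Stmn1 over 62% of the third, and the bars of a panel look alike.

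Tubb6, a divergent isotype of low abundance found widely outside neurons, had the largest gap between cKO libraries of any tested member. It had 18.6 CPM in cKO 1, 8.88 in cKO 2 and 15.9 in floxed, a 2.10-fold difference between cKO libraries, with a ratio of cKO 2 to cKO 1 between 0.394 and 0.574 (95% exact interval). The control lay between them, and edgeR gave a log2 fold of -0.19 (SE 0.45, adjusted p = 1). Of all tested genes, 10.5% were over 2-fold apart in the cKO libraries, and of the 40 tested members 1 was. All 14 meninges and fibroblast markers had the same order of libraries as Tubb6, none was at 0 counts in any library, and endothelial markers summed over 12 genes to 383, 183 and 318 CPM in cKO 1, cKO 2 and floxed. Their part in the Tubb6 result was not tested.

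Gamma-tubulins and the proteins that hold them in the nucleating ring were less abundant, with summed floxed levels of 115 and 215 CPM. Tubg1, the main gamma-tubulin, had 85.9 CPM in cKO 1, 106 in cKO 2 and 86.9 in floxed, with an edgeR log2 fold of 0.17 (SE 0.19, adjusted p = 1). The control was level with cKO 1 and below cKO 2. Tubg2, the second gene, had 26.9, 27.7 and 28.1 CPM. The floxed level lay above both cKO libraries for 4 of the 5 Tubgcp genes (31.8% of all tested genes had that order with library totals). The 4 genes kept that order with TMM or RLE size factors.

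Tubgcp6, which encodes the largest subunit specific to the ring complex, had the smallest p of the members. Its counts were 467, 367 and 544 in cKO 1, cKO 2 and floxed, which is 23.9, 19.8 and 30.5 CPM, so both cKO libraries were below the control. The ratio to floxed lay between 0.692 and 0.890 in cKO 1 and between 0.566 and 0.741 in cKO 2 (95% exact intervals). By edgeR the log2 fold was -0.47 (SE 0.19, adjusted p = 1). Tubgcp6 (ENSMUSG00000051786, minus strand, chr15:89098357-89123087) shares 8.71% of its exon bases with Selenoo on the opposite strand.

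Tubgcp4, another ring subunit, had 8.76 CPM in cKO 1, 6.78 in cKO 2 and 11.4 in floxed, on 171, 126 and 203 counts. Both cKO libraries lay below the control, and edgeR gave a log2 fold of -0.53 (SE 0.29, adjusted p = 1). It shares 26.1% of its exon bases with Zscan29 and Trp53bp1 on the opposite strand. Tubgcp6 and Tubgcp4 were the only tested members with a mean of at least 5 CPM whose cKO libraries were both more than 0.32 log2 from floxed. Tubgcp2, which belongs to the small gamma-tubulin complex that also builds the ring, had 85.3, 71.8 and 94.2 CPM in cKO 1, cKO 2 and floxed, with an edgeR log2 fold of -0.25 (SE 0.15, adjusted p = 1). Tubgcp3, its partner, had 53.0, 50.1 and 54.9 CPM, and Tubgcp5 28.4, 23.1 and 24.0 CPM with the control between the cKO libraries.

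Stathmins were led by Stmn1, the family member of progenitors and young neurons, with 2747 CPM in cKO 1, 2704 in cKO 2 and 2537 in floxed. Both cKO libraries were above the control by 1.08-fold and 1.07-fold and 1.02-fold apart from each other, and edgeR gave a log2 fold of 0.12 (SE 0.14, adjusted p = 1). Radial glia markers, summed over 14 genes, stood at 3310, 3153 and 2585 CPM in cKO 1, cKO 2 and floxed. Vim and Fabp7 held much of these sums, with 858, 874 and 572 CPM and 661, 678 and 477 CPM. The control lay below both cKO libraries for 8 of the 14 genes, above both for 1 and between for 5. Over all tested genes, 27.7% lay below both and 31.8% above both. The part of these markers in the Stmn1 value was not tested. Stmn2, the growth-cone stathmin SCG10, had 820, 848 and 819 CPM, and Stmn3, another neuronal stathmin, 520, 591 and 514 CPM. Stmn4, also neuronal, had 270, 308 and 318 CPM, with the control highest. Per kilobase of exon, Stmn1 made up 65.7%, 62.8% and 63.3% of stathmin signal in cKO 1, cKO 2 and floxed.

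The structural MAPs summed to 4244 CPM in cKO 1, 4198 in cKO 2 and 4470 in floxed, and of 11 tested members 4 had the floxed level above both cKO libraries, 2 below both and 5 between. With TMM or RLE size factors these numbers were 2, 2 and 7. The shares over all tested genes, with library totals, were 31.8% above both and 27.7% below both. Map1b, the main MAP of growing axons, had the most counts, with 1473, 1368 and 1413 CPM in cKO 1, cKO 2 and floxed and an edgeR log2 fold of 0.02 (SE 0.13, adjusted p = 1). The control lay between the cKO libraries.

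Mapt, which encodes the axonal protein tau, had the smallest edgeR p of the MAPs, and is described here after its values were seen. It had 1096 CPM in cKO 1, 1111 in cKO 2 and 1332 in floxed. The cKO libraries were 1.01-fold apart and both below the control, with ratios to floxed between 0.808 and 0.838 and between 0.818 and 0.849 (95% exact intervals). By edgeR the log2 fold was -0.25 (SE 0.13, adjusted p = 1), so the difference did not pass the test. Markers of upper-layer neurons, summed over 10 genes, stood at 1417, 1450 and 1658 CPM in cKO 1, cKO 2 and floxed, and those of deep-layer neurons, also 10 genes, at 2628, 2451 and 2191. Their part in the Mapt value was not tested.

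Map2, the dendritic MAP, had 674, 660 and 631 CPM, with the control below both cKO libraries by less than 1.10-fold. Map4, the MAP of many non-neuronal cells, had 309, 282 and 333 CPM, with the control above both. Map6, which stabilises microtubules against cold, had 161, 183 and 185 CPM, and Map7d1, of the MAP7 family, 288, 325 and 325. Map1a, the MAP of mature neurons related to Map1b, had 88.5, 98.5 and 90.6 CPM, and Map1s, of the same family, 70.8, 90.4 and 80.8, a 1.28-fold gap between cKO libraries. Map9, Map7d2 and Map7 were lower, with floxed levels of 58.5, 14.9 and 5.21 CPM and cKO levels within 0.32 log2 of these.

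All 3 genes of the doublecortin family had the floxed level above both cKO libraries, as did 31.8% of all tested genes with library totals. The order of these 3 genes was the same with TMM or RLE size factors. Dcx, the X-linked marker of migrating neurons, had 840 CPM in cKO 1, 753 in cKO 2 and 870 in floxed. The cKO mean of 797 ± 61.4 CPM (SD, n = 2) lay below the control, and edgeR gave a log2 fold of -0.11 (SE 0.13, adjusted p = 1). Dclk2, a doublecortin-like kinase, had 280, 278 and 302 CPM, and Dclk1, its relative, 287, 280 and 291 CPM. The differences in these kinase genes were below 1.10-fold.

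Of the intermediate filament genes of neurons, internexin (Ina), the subunit of young neurons, was by far the most abundant, at 465 CPM in cKO 1, 502 in cKO 2 and 467 in floxed. EdgeR gave a log2 fold of 0.07 (SE 0.14, adjusted p = 1), with the control between the cKO libraries. Per kilobase of exon Ina made up 90.2%, 91.1% and 89.1% of this family. Nefm, the medium subunit, had 47.4 and 47.7 CPM in the cKO libraries and 56.0 in floxed, so both lay below the control at 1.01-fold from each other. EdgeR gave a log2 fold of -0.22 (SE 0.13, adjusted p = 1), and like Mapt it was picked out after its values were seen. Nefl, the light subunit, had 23.3, 22.5 and 25.7 CPM, with intervals of the ratio that include 1 in both libraries. Nefm and Nefl share 19.2% and 32.8% of their exon bases with each other on opposite strands, so their reads cannot be separated there. Nefh, the subunit of mature axons, had 36, 22 and 19 counts.

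Genes that act on microtubules but are not members were described from 9 lists, with 118 tested genes of 120. The edgeR test called 0 higher and 0 lower, and DESeq2 and limma-voom called 0. Of the 118 genes, 4 (Kif26b, Nav2, Vim and Nes) had an unadjusted edgeR p under 0.05, where 1.3% of all tested genes did. Differences between lists were not tested. The kinesin list, which holds transport motors and their light chains together with the depolymerase Kif2a and the atypical kinesins Kif26a and Kif26b, had median log2 ratios of -0.14 in cKO 1 and -0.15 in cKO 2, and the floxed level lay above both for 8 of 16 (31.8% of all tested genes). Kif21b, the most abundant, had 730, 768 and 948 CPM in cKO 1, cKO 2 and floxed, and Kif26b, with the smallest p of its list, 23.1, 21.5 and 35.8 CPM (edgeR log2 fold -0.67, SE 0.16, adjusted p = 1). Enzymes that modify tubulin had the floxed level above both cKO libraries for 10 of 18 genes (31.8% of all tested genes). Among them were the detyrosinases Vash1 (80.5, 85.3 and 102 CPM) and Vash2 (98.6, 93.6 and 114 CPM), named for their p. Atat1, the most abundant gene of that list, had 411, 433 and 421 CPM, with the control between the cKO libraries.

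Proteins of microtubule ends had the floxed level above both for 9 of 19 genes and below both for 1 (31.8% and 27.7% of all tested genes). Nav2, a neuron navigator, had 111, 107 and 144 CPM (edgeR log2 fold -0.39, SE 0.12, adjusted p = 1). Mapre1, the most abundant gene of that list, had 346, 306 and 333 CPM, with the control between the cKO libraries. Collapsin response mediators, which carry tubulin dimers to growing ends, had it above both for 3 of 5, with Dpysl3 at 1801, 1628 and 2031 CPM. Tubulin folding cofactors had the control below both cKO libraries for 9 of 19 genes and above both for 4, against 27.7% and 31.8% of all tested genes. Cct4, a subunit of the chaperonin that folds tubulin, had 269, 262 and 241 CPM. Cct7, the most abundant gene of that list, had 383, 405 and 399 CPM, with the control between the cKO libraries. For the Lis1 and dynein list the numbers above and below both were 7 and 3 of 16, for severing enzymes 2 and 2 of 8, and for the MARK and Cdk5 kinases 6 and 0 of 12, beside the same shares of all tested genes.

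Among the other intermediate filaments, the control lay below both cKO libraries for 3 of 5 tested genes (Vim, Nes and Prph). It lay above both for 1 (Gfap) and between for 1 (Des), against 27.7% below and 31.8% above both of all tested genes. The orders of Prph, Gfap and Des rest on few counts. In cKO 1, cKO 2 and floxed, Prph had 39, 34 and 21, Gfap 31, 37 and 48, and Des 57, 9 and 42. The intervals of the ratio for Prph include 1 in both libraries. Of the neuronal members, Nefm and Nefl had the control above both, Nefh below both on few counts, and Ina between. Vim, the vimentin gene, had 858 CPM in cKO 1, 874 in cKO 2 and 572 in floxed, with an edgeR log2 fold of 0.62 (SE 0.13, adjusted p = 1). Nes, the nestin gene, had 422, 405 and 329 CPM (edgeR log2 fold 0.35, SE 0.12, adjusted p = 1). Both are also on the list of radial glia markers, so they do not add to it.

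**Figure D3:**
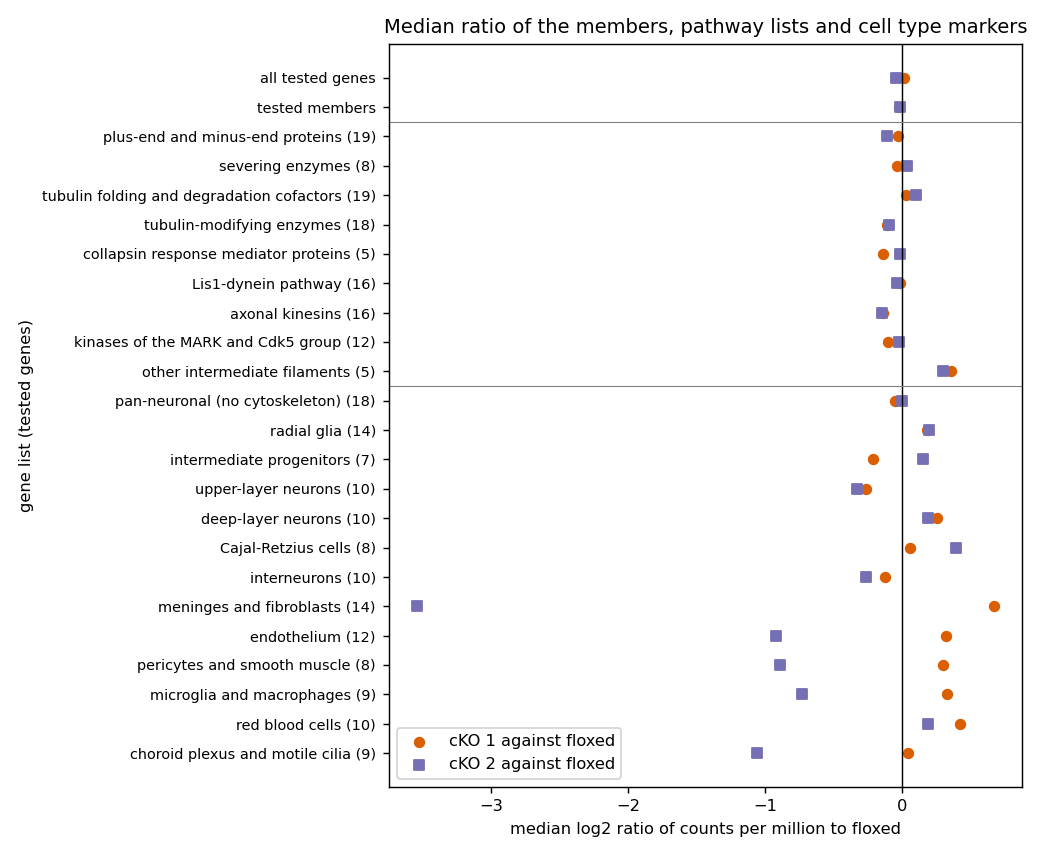
Median log2 ratio of each cKO library to floxed over all tested genes, the tested members, 9 lists of related genes and 13 lists of cell type markers, with the number of tested genes in parentheses. The members sit near 0 in both libraries, the other intermediate filaments at 0.36 and 0.30, and the meninges markers at 0.67 in cKO 1 and -3.54 in cKO 2.

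Promoter windows (250 bases before to 50 after the start, RefSeq, GRCm38.p6) were matched by symbol for 30 of 42 members, in 36 windows. The GC box GGGCGG, searched on both strands, occurred in 55.6% of the members' windows and 35.7% of all 32851 windows. CCAAT occurred in 38.9% against 37.4%, TATAAA in 16.7% against 13.6%, the E-box CAGCTG in 13.9% against 16.3%, and TGACG, the core of a cAMP response element, in 22.2% against 20.8%. None of these motifs contains another. A match describes letters in a window and is not a binding site.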

How the data were processed

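The deposited tables hold raw counts per gene, made by the authors, for 2 libraries labelled cKO and 1 labelled WT. Column names hold KO or WT as the sample titles do, and do not show which sample of a group each is. The floxed counts were identical in both tables for all 19968 shared genes and were used once. Bowtie2 2.2.3, TopHat2 2.0.12, HTSeq 0.6.0 and mm9 are named, per the submitters' processing notes. Positions in the tables instead overlapped GENCODE M21 (GRCm38) for 19896 of the 19913 shared genes found there and are given as GRCm38. Beside the counts the authors deposited CPM values, ratios (fold), log2 folds and p-values of 1 library against 1. The totals behind the deposited CPM gave the library totals used for levels here. Genes listed in 1 table only (1134 and 665) were left out.

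The counts went into edgeR 4.0.16 (R 4.3.3) with these settings (minimum count 10, 16725 genes, TMM factors 1.01, 0.979 and 1.01, quasi-likelihood test with Benjamini-Hochberg adjustment, threshold 0.05, 1 residual degree of freedom). Alternatives were DESeq2 1.42.0, limma 3.58.1 (voom), other scalings, no filter and leaving out a cKO library. SE is the log2 fold divided by the square root of F. Ratio intervals are exact (Clopper-Pearson, 95%) and cover counting error only. Exon lengths and overlaps come from GENCODE M21. Full values were given for the most abundant member of each role, members with a mean of at least 5 CPM and either 0.32 log2 from floxed in both cKO libraries or 1.5-fold between them, and the smallest p. Related genes were named as the most abundant of a list or among its 2 smallest p. The members and lists were chosen with earlier results of these data known. A sequence withheld for evaluation is not reported here.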

Additional observations from a re-analysis of the deposited data

How the results depend on the processing

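None of the 13 members followed through the alternatives (the 11 named by rule, Mapt and Nefm) had a fitted fold of the other sign, or an adjusted p under 0.05, with RLE size factors, library totals, no filter, DESeq2 or limma-voom. Members called stayed at 0 in each. With 1 cKO library left out, the unfitted log2 ratio of the other to floxed, on library totals, took the place of the fitted fold. It had the other sign for 5 of the 13, with values of -0.0027 for Tuba1a, 0.23 for Tubb6, -0.02 for Tubg1 and -0.0076 for Ina without cKO 2, and -0.05 for Map1b without cKO 1. Over all genes edgeR called 0, DESeq2 5 and edgeR with library totals 1. The members' median fitted log2 fold of 0.011 was -0.0061 with library totals and 0.0022 with limma-voom. With 1 cKO library left out, only the unfitted median of the other on library totals remained, -0.026 for cKO 1 and -0.014 for cKO 2. These differ from the fitted median in scaling as well as in libraries. Over the 31 members with under 10% of windows shared, a choice made after seeing the data, the median fitted log2 fold was -0.018. Of these, 5 members had floxed below both cKO libraries in place of 9, and the unfitted medians were -0.051 in cKO 1 and -0.047 in cKO 2. Over all tested members, the unfitted median in cKO 1 was -0.026 with library totals and -0.036 with RLE factors. That in cKO 2 was -0.014 with library totals, 0.029 with TMM and 0.030 with RLE factors. Against 1 cKO library alone, floxed was above it for 22 to 25 members and below it for 15 to 18, in place of 16 and 9 against both. Without a cKO library no test remains. No paired analysis was possible because the floxed group has 1 library and no number pairs libraries. With counts of 203 or fewer in Tubgcp4, counting error alone allows ratios to floxed from 0.473 to 0.748 in cKO 2.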
